A study of Mus musculus with 11 samples.

Results

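The type I interferon response genes described here are 39 mouse genes listed by symbol (antiviral effectors, nucleic acid sensors and STAT and IRF factors), read in LSK cells. LSK cells are bone marrow cells negative for lineage antigens and positive for cKit and Sca-1, the fraction that holds blood stem cells and multipotent progenitors. All 39 symbols were in the table of 55291 gene symbols, and all 39 were among the 17183 genes with enough counts to be tested. The libraries came from C57BL/6 mice: 4 wild type (WT), 3 Phf6 knockout (KO) and 4 labelled Phf6 R274X Tg (Tg). The labels give neither age nor sex, and name neither the promoter of the Tg allele nor the way in which Phf6 was knocked out. Phf6 lies on the X chromosome and encodes a chromatin protein whose gene is a target of mutation in leukaemia, and the R274X change ends the protein early.

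Type I interferons signal through the receptor of Ifnar1 and Ifnar2 and the kinases Jak1 and Tyk2 to a complex that holds Stat2 and Irf9 and binds interferon-stimulated response elements in the promoters of its targets. The targets include proteins that block viral RNA and translation, the sensors that detect foreign nucleic acid, Irf7, which amplifies interferon production, and Usp18, which restrains the receptor. In haematopoietic stem cells a part of these genes is known to be expressed without infection, and a strong interferon signal is known to drive the cells out of quiescence.

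Promoters were read for a core of this response element, because the 39 genes are known as targets of 1 pathway. The core searched was GAAANNGAAA on either strand, with overlapping matches counted, in RefSeq windows of 300 bases (250 before and 50 after the annotated start, GRCm38.p6). Windows were matched by symbol for 29 of the 39 genes. The core was in a window of 15 of the 29, or 51.7%, against 3.99% of all 27025 genes in the promoter table and 3.44% of its 32851 windows. A match is a description of letters and not a measured binding site. Printed here is the stretch around the cores of 10 of the 12 genes with a core before the start, in the direction of transcription, with the cores in capitals (those of Rsad2 and Trim30a, neither called by edgeR or DESeq2, are not shown). The first 7 include all 6 genes with a core that edgeR called lower in Tg than in KO, and the last 3 are genes with a core that edgeR did not call, of which DESeq2 called Ddx60 and Stat2.
Isg15: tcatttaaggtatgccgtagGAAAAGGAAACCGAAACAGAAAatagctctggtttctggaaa
Ifit1: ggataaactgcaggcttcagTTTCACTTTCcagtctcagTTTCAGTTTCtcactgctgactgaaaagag
Ifit3: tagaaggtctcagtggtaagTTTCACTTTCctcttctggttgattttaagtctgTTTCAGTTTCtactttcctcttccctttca
Ifit3b: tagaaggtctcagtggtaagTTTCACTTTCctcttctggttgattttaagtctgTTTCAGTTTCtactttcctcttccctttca
Oas1a: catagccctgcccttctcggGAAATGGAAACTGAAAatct
Oas1g: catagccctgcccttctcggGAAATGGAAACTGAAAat
Oas3: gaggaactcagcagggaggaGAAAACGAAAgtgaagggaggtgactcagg
Bst2: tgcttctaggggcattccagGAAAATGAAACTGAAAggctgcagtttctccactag
Ddx60: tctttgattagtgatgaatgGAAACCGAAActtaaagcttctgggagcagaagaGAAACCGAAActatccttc
Stat2: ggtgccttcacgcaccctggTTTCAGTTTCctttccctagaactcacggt
These stretches lie at chr4:156200855-156200916 (minus strand), chr19:34640765-34640833 (plus), chr19:34583353-34583436 (plus), chr19:34607749-34607832 (plus), chr5:120907526-120907565 (minus), chr5:120887614-120887651 (minus), chr5:120777705-120777754 (minus), chr8:71537567-71537622 (minus), chr8:61928014-61928086 (plus) and chr10:128270256-128270305 (plus). Isg15 held 3 overlapping cores, whose first bases were at -78, -72 and -66 from the start. Ifit1 held 2 cores on the other strand, at -104 and -85. The 84 bases printed for Ifit3 and Ifit3b are identical. Oas1a and Oas1g also share their 2 overlapping cores. A second core was present in 9 of the 29 genes (31.0%, against 0.266% of all genes in the table).

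Several of the 39 genes lie side by side. The Ifit genes fall within chr19:34550694-34650009, Oas1a, Oas1g, Oas2 and Oas3 within chr5:120730333-120907521, Oasl1 and Oasl2 within chr5:114896936-114937915, Cmpk2 and Rsad2 within chr12:26442746-26479837 and Parp14, Dtx3l and Parp9 within chr16:35832874-35972605 (GENCODE M21, GRCm38). Transcripts of Ifit3 and Ifit3b were 97.8% identical over 1700 bases, those of Oas1a and Oas1g 97.6% over 1861 and those of Mx1 and Mx2 94.8% over 920. Reads could be split between such copies, so the single genes of these pairs are uncertain. The labels do not say that strand was kept, so the reads of Parp9 and Dtx3l, which overlap on opposite strands over 9.4% of the Parp9 exons, cannot be told apart there. GENCODE lists Mx2 as a polymorphic pseudogene and the others as protein-coding.

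Libraries held 20990446 to 45632018 counts, so that 3 counts, the limit that a count of 0 allows, amounted to 0.0656 to 0.144 CPM, a limit for counting error only. CPM are counts relative to the library total, scaled by TMM factors. The labels state that RNA came from individual mice, and the p-values measure the spread between these libraries. Phf6 held 142, 117, 116 and 109.9 in WT, 24, 18.8 and 15.3 in KO and 183, 183, 237 and 278 in Tg (CPM, libraries in replicate order here and throughout). Against WT, Phf6 fell by 2.64 in log2 in KO (edgeR adjusted p = 0.000352) and rose by 0.86 in Tg (edgeR adjusted p = 0.0176). Neither of the sort markers, Kit and Ly6a, was called by edgeR in any comparison. Ly6a encodes Sca-1, is itself induced by interferon and overlapped between genotypes (25.6 ± 5.79 in WT, 32.2 ± 9.98 in KO and 25.1 ± 4.48 in Tg). Kit averaged 729 ± 68.5 CPM (SD) over the 4 WT libraries. Every KO library held less Kit (579 to 648 CPM) than any WT library (667 to 802) or Tg library (672 to 884). DESeq2 called Kit higher in Tg than in KO (adjusted p = 0.044). The log2 fold change there was 0.33 in edgeR (adjusted p = 0.107).

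Libraries differed in sex-linked genes. Xist was at 48.8 to 54.2 CPM in WT, 32.6 to 41.1 in KO and 0.0307 to 0.324 in Tg, and the summed level of 4 Y-linked genes ran from 54.3 to 368 CPM in Tg. Genotype and the sex of the mice therefore cannot be told apart in either comparison with Tg. WT replicates 1, 2 and 4 and KO replicate 1 held both Xist and Y-linked reads (summed Y-linked levels of 21.1 to 134 CPM), which goes against a label of 1 mouse each. Counts of calls are given with and without these 4 libraries, a fit that leaves 1 WT and 2 KO libraries and assumes that the lone WT library varies like the others.

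The 39 genes took 0.161% ± 0.014 (SD, n = 4) of all counts in WT, 0.209% ± 0.0484 (n = 3) in KO and 0.138% ± 0.0136 (n = 4) in Tg. Their mean level, on the log2 CPM scale, ran from 3.86 to 4.54 across the WT libraries, from 4.62 to 5.39 across KO and from 3.84 to 4.13 across Tg. No KO library overlapped the others on this mean, whereas the WT and Tg libraries overlapped. KO replicate 1 was the highest of the 11 libraries for 35 of the 39 genes, and it held the highest mean. In bulk RNA a change in the number of cells that express a gene and a change in its RNA per cell cannot be told apart.

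**Figure D1:**
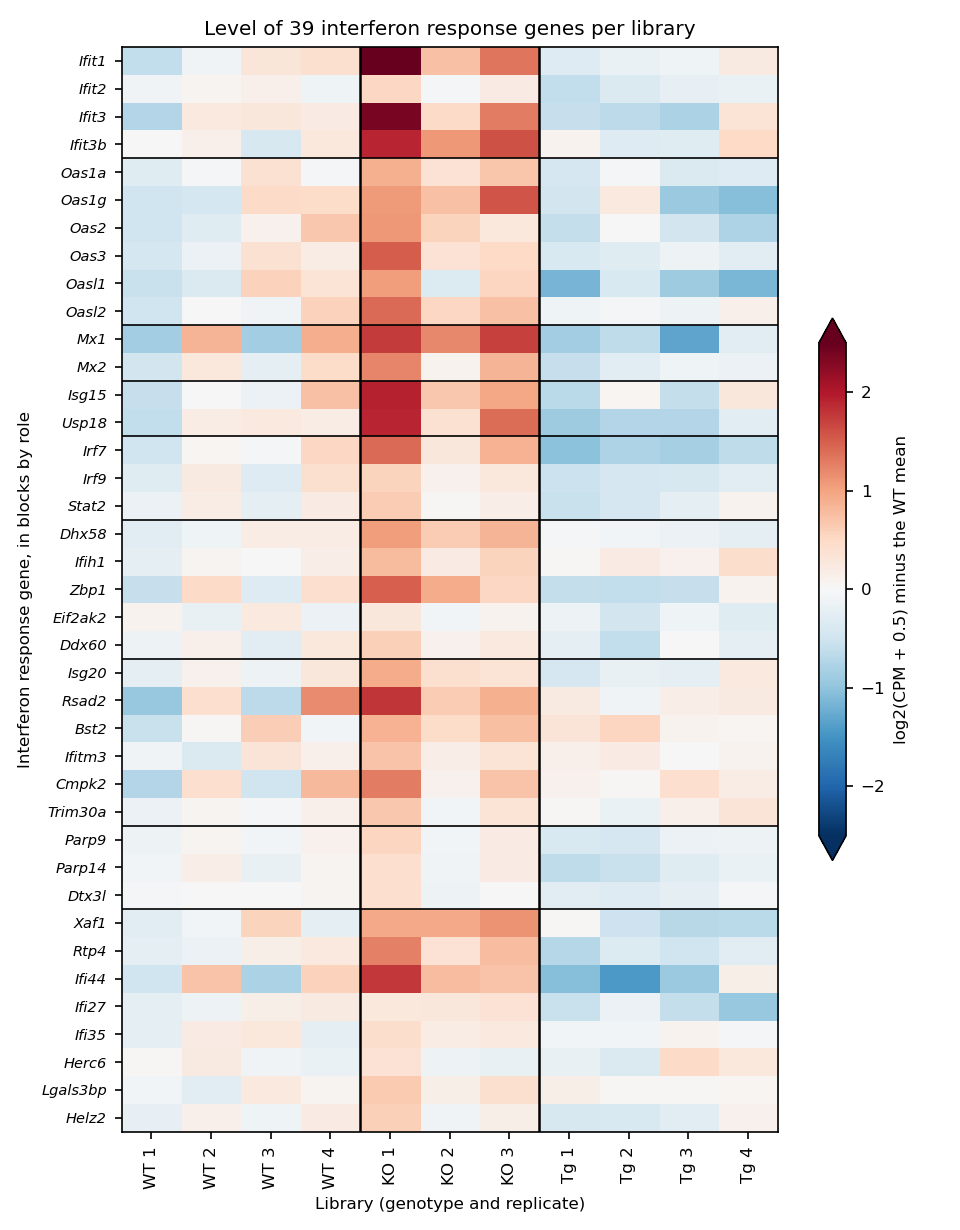
Each row is 1 of the 39 genes, in blocks by role, and each column 1 of the 11 libraries. Colour gives log2(CPM + 0.5) minus the mean of the 4 WT libraries, and darker red than 2.5 is not resolved. The column of KO replicate 1 is the reddest, and the 4 Tg columns are mostly blue.

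Levels per kilobase of exon differed widely between the genes. In WT, Ifitm3, which restricts viral entry, was the highest at 181 ± 35.8 CPM per kilobase, followed by Lgals3bp at 58.3 ± 8.73 (SD, n = 4). Ifi27 and Dtx3l came next at 36.8 ± 5.65 and 35.0 ± 1.29 and did not differ beyond their spread. The lowest were Ifit3b at 0.0827 ± 0.0611, Ifit3 at 0.738 ± 0.286 and Mx1 at 0.798 ± 0.583, of which the last 2 overlapped. These 3 genes also had the log2 fold changes of Tg against KO farthest from 0, at -3.05, -2.44 and -2.69.

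The first comparison asks how the response genes stood in cells that lack Phf6. All 39 genes lay above WT in KO, with a median log2 fold change of 0.652 against -0.005 over all genes tested, but none was called. In edgeR's quasi-likelihood test 0 of 39 passed a Benjamini-Hochberg adjusted p of 0.05, where 0.00582% of all genes were called higher. At an unadjusted p under 0.05 there were 23 of 39 higher (3.33% of all genes), limma-voom called 0, and DESeq2 called 6 of 39 (0.306% of the genes it tested): Ifit1, Oasl2, Usp18, Xaf1, Rtp4 and Dhx58. The KO libraries were all above the WT libraries for 13 of 39 genes (3.79% of all genes). With each library of these genotypes left out, which can only keep or raise that count, it ran from 13 to 26. It was 13 without KO replicate 1 (7.15% of all genes) or WT replicate 1 (5.16%) and 26 without KO replicate 2 (6.35%). Without KO replicate 1 the median was 0.39, 37 genes lay above WT and 12 were at an unadjusted p under 0.05. Without the 4 libraries that held Xist as well as Y-linked reads, 32 lay above, 10 were at an unadjusted p under 0.05 and edgeR called none. Calls of single genes are those of edgeR from here on unless another tool is named.

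The second comparison sets Tg against the same WT libraries, so that its values and those of KO share their controls. Here 31 of 39 genes lay below WT and 8 above, with a median log2 fold change of -0.282 against 0.005 over all genes. In edgeR 0 of 39 were called, where 2.39% of all genes were called lower. At an unadjusted p under 0.05 there were 10 of 39 lower, against 11.1% of all genes, and limma-voom called 0. DESeq2 called 4 of 39 lower (4.64% of the genes it tested): Irf7, Oasl1, Ifi27 and Parp14. The Tg libraries all lay below WT for 3 of 39 genes, Ifit2, Irf7 and Rtp4, against 5.34% of all genes. Leaving out a library can only keep or raise that count. It was 12 without Tg replicate 4 (8.85% of all genes), 8 without WT replicate 1 (6.76%) and 6 without Tg replicate 2 (6.66%). With each library left out, the number lower at an unadjusted p under 0.05 ran from 6, without WT replicate 3 or Tg replicate 1, to 15, without WT replicate 1 or Tg replicate 4. Without the 4 libraries that held Xist as well as Y-linked reads, 28 genes lay below WT and 11 above, 9 were lower and 2 higher at an unadjusted p under 0.05, and none was called, where 0.0596% of all genes were called lower.

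The third comparison, Tg against KO, is also the test of whether the 2 differences from WT differ from each other. In it 38 of 39 genes were lower in Tg, with a median log2 fold change of -0.96 against 0.013 over all genes, and 17 were more than 2-fold lower. The test called 22 of 39 lower and 0 higher, where 3.06% of all genes were called lower. DESeq2 called 27 (4.72% of the genes it tested) and limma-voom 22 (2.65%). All Tg libraries lay below all KO libraries for 30 of 39 genes, against 11% of all genes. Leaving out a library cannot lower this count, which was 30 without KO replicate 1 (14.0% of all genes). Mean levels ran KO, WT, Tg from high to low for 31 genes, KO, Tg, WT for 7 and Tg, KO, WT for 1, Herc6.

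**Figure D2:**
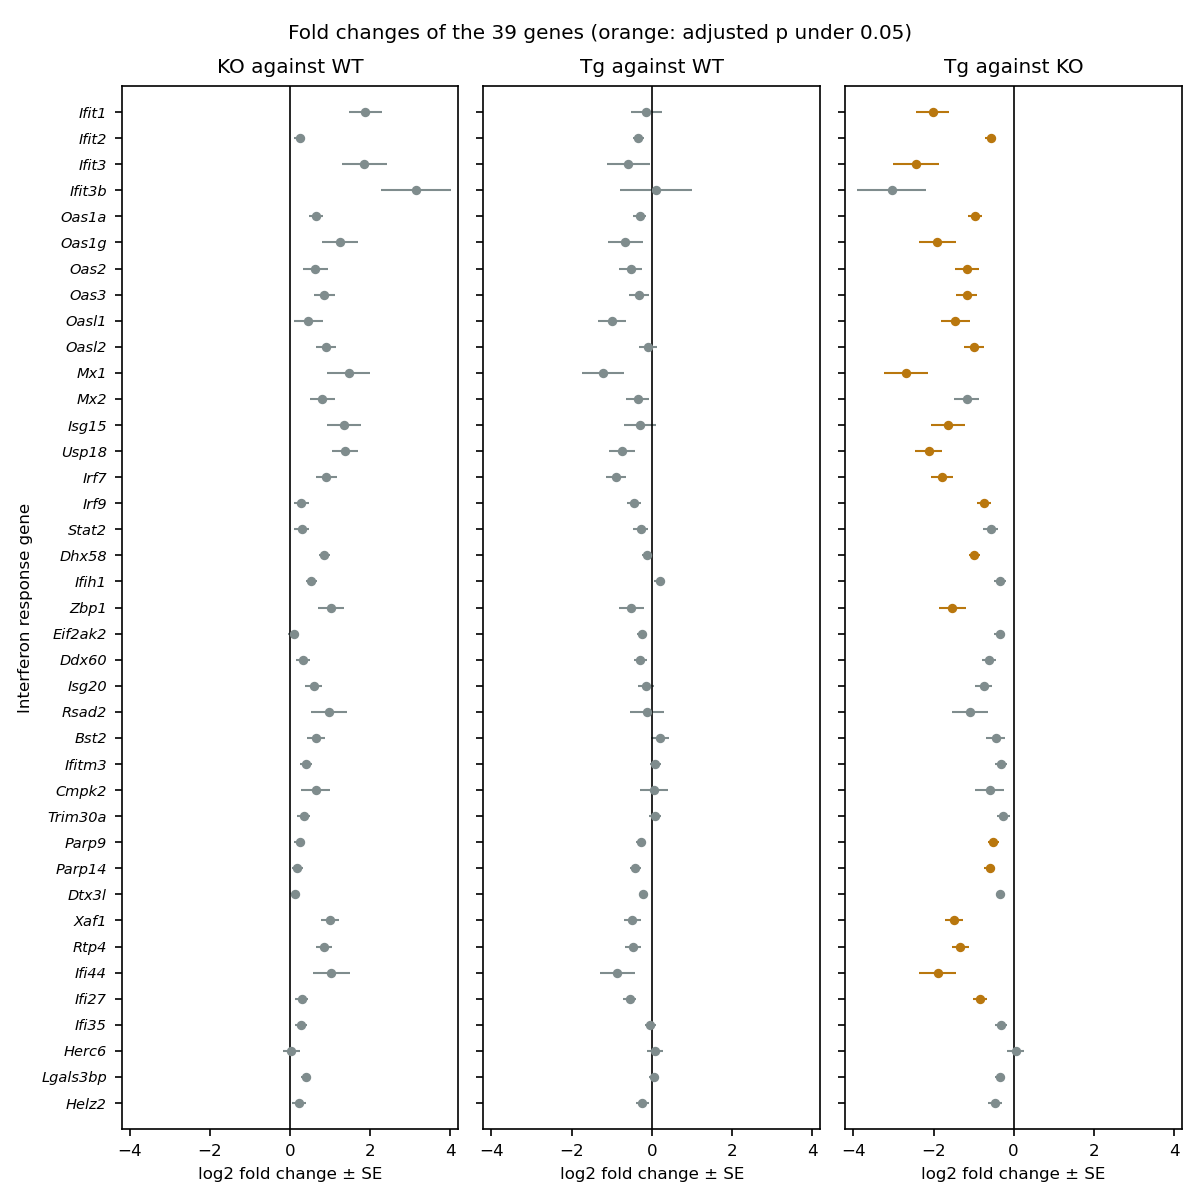
Log2 fold change of each of the 39 genes with its standard error (SE) in the 3 comparisons, orange where the adjusted p was under 0.05. All 39 points lie to the right of 0 for KO against WT, 8 of 39 for Tg against WT and 1 of 39 for Tg against KO, where 22 are orange.

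How many genes were called rested on single libraries. With each of the 11 libraries left out in turn, the number called lower in Tg than in KO ran from 5, without KO replicate 1, to 21, without WT replicate 1. It was 7 without Tg replicate 1, 9 without Tg replicate 2 (1.51% of all genes), 9 without KO replicate 3 (1.17%) and 13 without Tg replicate 3 (2.49%). Calls over all genes moved as well: 3.06% were called lower in the fit of 11 libraries, 1.21% without KO replicate 1, 1.12% without Tg replicate 1 and 2.87% without WT replicate 1. Irf7, Usp18, Xaf1, Rtp4 and Dhx58 stayed under an adjusted p of 0.05 in all 11 fits. Without KO replicate 1 the median log2 fold change of the 39 genes was -0.68. Leaving out the 4 libraries that held Xist as well as Y-linked reads gave 10 calls (1.33% of all genes were called lower), all among the 22, and a median of -0.69. The 10 were Mx1, Oas1a, Oas3, Oasl2, Irf7, Irf9, Usp18, Xaf1, Rtp4 and Dhx58. The calls of Ifit1, Ifit2, Ifit3, Isg15, Oas1g, Oas2, Oasl1, Ifi44, Ifi27, Parp9, Parp14 and Zbp1 were lost there, with edgeR adjusted p from 0.0554 (Ifit1) to 0.237 (Parp9).

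**Figure D3:**
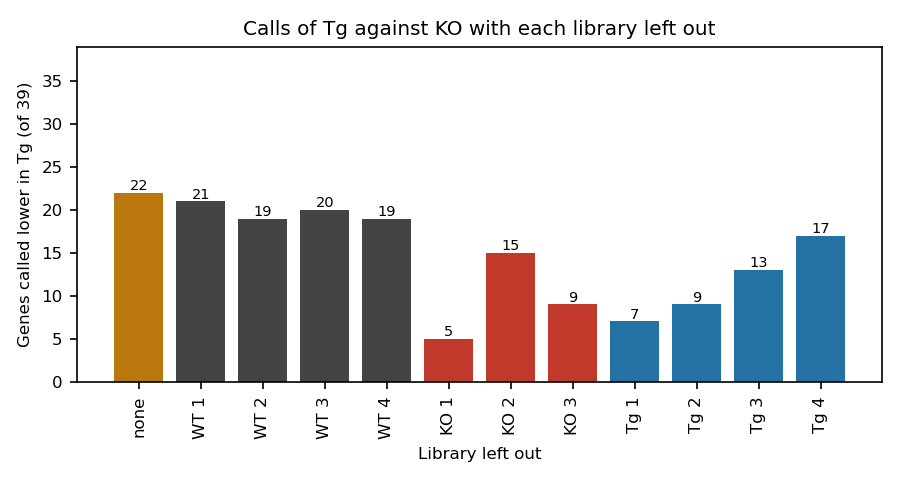
Bars count the genes of the 39 called lower in Tg than in KO in a fit of all 11 libraries (none) and with the named library left out. Bars run from 5 without KO replicate 1 to 22 with none left out.

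The factors that carry the signal moved unequally. Irf7, which transcribes interferon genes and is itself induced by interferon, held 12.6, 18.6, 17.4 and 25.8 in WT, 49.2, 22.1 and 33.1 in KO and 8.55, 10.4, 9.85 and 11.4 in Tg (CPM). The 4 Tg values were below every other value, and KO overlapped WT at KO replicate 2. Irf7 fell by 1.79 in log2 (SE 0.27, edgeR adjusted p = 0.00463) in Tg against KO. Against WT its log2 fold changes were 0.91 (SE 0.27, adjusted p = 0.528) in KO and -0.89 (SE 0.25, adjusted p = 0.068) in Tg.

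Irf9, the DNA-binding part of the interferon-activated complex, held 49.5, 72.1, 48.9 and 81.9 in WT, 90.6, 66.6 and 73.7 in KO and 42.2, 45.8, 46.2 and 51.3 in Tg (CPM). All Tg libraries were below the KO libraries, and 2 WT libraries were in the Tg range. In Tg against KO it fell by 0.73 in log2 (SE 0.18, edgeR adjusted p = 0.0375), a call that was lost without KO 1, KO 2, KO 3, Tg 1, Tg 2, Tg 3 or Tg 4 (adjusted p up to 0.151). Against WT the log2 fold changes were 0.29 (SE 0.18, adjusted p = 0.784) in KO and -0.44 (SE 0.17, adjusted p = 0.146) in Tg. Stat2, its partner, held 28, 35, 26.1 and 35.4 in WT, 48.1, 31.5 and 34.7 in KO and 20.8, 22.8, 26.1 and 32.7 in Tg, with overlap between all 3 genotypes. Its log2 fold change of Tg against KO was -0.57 (SE 0.19, adjusted p = 0.0983) in edgeR, while DESeq2 called it (adjusted p = 0.0444), and those against WT were 0.29 (SE 0.19, adjusted p = 0.789) in KO and -0.28 (SE 0.17, adjusted p = 0.382) in Tg.

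Usp18 removes the ubiquitin-like modifier Isg15 from proteins and blocks signalling at Ifnar2. Usp18 held 4.45, 8.18, 8.44 and 8.1 in WT, 28, 9.37 and 19.3 in KO and 3.6, 4.07, 4.04 and 5.71 in Tg (CPM). The KO libraries were above all others and spread from 9.37 to 28.0. In Tg against KO it fell by 2.12 in log2 (SE 0.34, edgeR adjusted p = 0.00625), and against WT its log2 fold changes were 1.38 (SE 0.33, adjusted p = 0.344) in KO and -0.74 (SE 0.32, adjusted p = 0.197) in Tg. Isg15 itself held 1.75, 2.86, 2.51 and 5.03 in WT, 12.2, 4.83 and 6.07 in KO and 1.6, 2.94, 1.71 and 3.56 in Tg, with WT replicate 4 between the KO values. It fell by 1.65 in log2 (SE 0.42, edgeR adjusted p = 0.0458) in Tg against KO, a call that was lost without WT 2, WT 3, KO 1, KO 2, KO 3, Tg 1, Tg 2 or Tg 3 (adjusted p up to 0.205).

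Among the nucleic acid sensors, Dhx58, a helicase of the RIG-I family that tunes the response of its relatives, had the lowest p of the 39 genes in Tg against KO. Its levels were 17.7, 20.1, 24.7 and 24.7 in WT, 45, 34 and 39.4 in KO and 21.3, 20.7, 19.4 and 18.5 in Tg (CPM). All 3 KO values were above all 8 others, and the WT and Tg values overlapped. Dhx58 fell by 0.98 in log2 (SE 0.14, edgeR adjusted p = 0.00322) in Tg against KO, and its log2 fold change of KO against WT, 0.86 (SE 0.14, adjusted p = 0.148), also had the lowest p there. In Tg against WT the value was -0.13 (SE 0.13, adjusted p = 0.613).

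Zbp1, which senses left-handed nucleic acid and can start necroptosis, held 3.81, 8.42, 4.66 and 8.1 in WT, 17.5, 11.8 and 8.75 in KO and 3.75, 3.69, 3.81 and 6.3 in Tg (CPM). The KO libraries were above all others. It fell by 1.53 in log2 (SE 0.33, edgeR adjusted p = 0.0241) in Tg against KO, a call lost without KO 1, KO 2, Tg 1 or Tg 2 (adjusted p up to 0.106). Other sensors did not pass in edgeR: the log2 fold changes of Tg against KO were -0.34 (SE 0.14, adjusted p = 0.199) for Ifih1, which detects long double-stranded RNA, -0.35 (SE 0.13, adjusted p = 0.138) for the RNA-activated kinase Eif2ak2 and -0.61 (SE 0.17, adjusted p = 0.0646) for the helicase Ddx60, which DESeq2 called (adjusted p = 0.0168). Ifih1 is 1 of the 8 genes with Tg above WT, at 0.20 (SE 0.13, adjusted p = 0.43).

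The Ifit proteins bind viral RNA and block its translation. Ifit1 held 3.43, 5.2, 6.92 and 7.53 in WT, 39.3, 9.58 and 14.8 in KO and 4.35, 4.91, 5.12 and 6.61 in Tg (CPM). KO replicate 1 was far above every other library, the other KO libraries were still above WT, and WT and Tg overlapped. Ifit1 fell by 2.02 in log2 (SE 0.42, edgeR adjusted p = 0.0204) in Tg against KO, and its log2 fold change of KO against WT was 1.89 (SE 0.42, adjusted p = 0.308). Without KO replicate 1 the log2 fold change of Tg against KO was -1.22, and the call was lost without KO 1, Tg 1 or Tg 2 (adjusted p up to 0.0763).

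Ifit3 held 0.54, 1.54, 1.59 and 1.49 in WT, 8.37, 1.89 and 3.65 in KO and 0.65, 0.593, 0.492 and 1.69 in Tg (CPM), low levels at which Tg replicate 4 reached the WT values. In Tg against KO it fell by 2.44 in log2 (SE 0.57, edgeR adjusted p = 0.0333), a call lost without KO 1, KO 3, Tg 1, Tg 2 or Tg 3 (adjusted p up to 0.155), and without KO replicate 1 its log2 fold change was -1.69. Ifit2, the most abundant of the family per kilobase, held 40.03, 44.7, 46.3 and 39.5 in WT, 61.3, 41 and 49 in KO and 27.5, 33, 37 and 37.8 in Tg, and Tg was below every library of the other genotypes. Ifit2 fell by 0.58 in log2 (SE 0.14, edgeR adjusted p = 0.0412) in Tg against KO, a call lost without WT 1, WT 2, WT 4, KO 1, KO 3, Tg 1 or Tg 2 (adjusted p up to 0.167). Ifit3b was near its detection limit in WT and Tg (0 to 0.43 CPM) and at 0.901 to 1.97 CPM in KO. In Tg against KO it did not pass in edgeR, at -3.05 (SE 0.85, adjusted p = 0.0609), and was called by DESeq2 (adjusted p = 0.0101).

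Oligoadenylate synthetases are enzymes that detect double-stranded RNA, and their relative Oasl1 restrains the translation of Irf7. All 6 of the family were called lower in Tg than in KO, with log2 fold changes from -1.91 to -0.96. Oas1a held 15, 18.3, 24.5 and 17.9 in WT, 34.6, 24.1 and 30.5 in KO and 13.7, 18.2, 14.3 and 14.9 in Tg (CPM), with 1 WT value among the KO values. It fell by 0.96 in log2 (SE 0.18, edgeR adjusted p = 0.0122), a call lost without KO 1 (adjusted p up to 0.0582). Oas1g, its near copy, held 1.43, 1.51, 3.27 and 3.21 in WT, 5.18, 4.02 and 7.54 in KO and 1.48, 2.72, 0.919 and 0.799 in Tg. It fell by 1.91 in log2 (SE 0.46, edgeR adjusted p = 0.0356), a call lost without KO 1, KO 2, KO 3, Tg 1, Tg 3 or Tg 4 (adjusted p up to 0.118). Both copies were lower in every Tg library than in every KO library.

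Oas2 held 6.54, 7.59, 10.2 and 15.4 in WT, 20.7, 14.1 and 11.4 in KO and 6.05, 9.41, 6.73 and 5.32 in Tg (CPM) and fell by 1.17 in log2 (SE 0.31, edgeR adjusted p = 0.0493) in Tg against KO, a call lost without WT 3, KO 1, KO 2, KO 3, Tg 1, Tg 2, Tg 3 or Tg 4 (adjusted p up to 0.201). Oas3, the largest of the family, held 22.6, 27.7, 40.3 and 35 in WT, 87.9, 39.5 and 43.8 in KO and 23.5, 24.8, 27.9 and 24.9 in Tg and fell by 1.18 in log2 (SE 0.26, edgeR adjusted p = 0.0272), a call lost without KO 1, Tg 1, Tg 2 or Tg 4 (adjusted p up to 0.0904). For Oas3, KO replicate 1 was far above every other library, and WT replicate 3 lay among the KO values. Oasl1 held 6.42, 7.44, 14.7 and 12.4 in WT, 20.4, 7.54 and 14.2 in KO and 4.05, 7.36, 4.99 and 4.12 in Tg and fell by 1.45 in log2 (SE 0.37, edgeR adjusted p = 0.0435), a call lost without WT 4, KO 1, KO 3, Tg 1, Tg 3 or Tg 4 (adjusted p up to 0.185). Oasl2 held 24.4, 34.9, 32.4 and 51.9 in WT, 92.8, 49.9 and 57.9 in KO and 31.9, 33.5, 31.6 and 37.8 in Tg and fell by 0.99 in log2 (SE 0.24, edgeR adjusted p = 0.0397), a call lost without KO 1, KO 2, KO 3, Tg 1, Tg 2, Tg 3 or Tg 4 (adjusted p up to 0.165). Neither Oasl gene separated KO from WT.

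Mx1 encodes a GTPase that traps viral particles, and C57BL/6 mice carry an allele known to yield no functional protein. Its RNA held 1.11, 4.83, 1.11 and 5.03 in WT, 9.49, 6.3 and 9.15 in KO and 1.12, 1.4, 0.689 and 1.94 in Tg (CPM). WT libraries fell into a low and a high pair, with replicates 2 and 4 the high ones, and every KO library was above all of them. Mx1 fell by 2.69 in log2 (SE 0.55, edgeR adjusted p = 0.02) in Tg against KO, a call lost without KO 1, KO 3, Tg 1 or Tg 2 (adjusted p up to 0.0661). Mx2 stood at -1.17 (SE 0.31, adjusted p = 0.0519) and was not called by edgeR, but was by DESeq2 (adjusted p = 0.00549).

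Xaf1, a factor that promotes apoptosis, held 11.9, 13.9, 21.5 and 12.4 in WT, 28.6, 28.6 and 32.1 in KO and 14.8, 10.03, 8.73 and 8.94 in Tg (CPM). The 3 KO values were close together and above every other value. It fell by 1.48 in log2 (SE 0.23, edgeR adjusted p = 0.00534) in Tg against KO, and its log2 fold changes against WT were 0.99 (SE 0.23, adjusted p = 0.341) in KO and -0.49 (SE 0.21, adjusted p = 0.207) in Tg. Rtp4, a receptor chaperone induced by interferon, held 12.6, 13.5, 16.6 and 17.8 in WT, 36.6, 19.4 and 26.1 in KO and 9, 11.8, 10.4 and 12.4 in Tg. Here the 3 genotypes did not overlap at all, in the order KO, WT, Tg. Rtp4 fell by 1.33 in log2 (SE 0.21, edgeR adjusted p = 0.00559) in Tg against KO, with 0.86 (SE 0.21, adjusted p = 0.344) in KO and -0.47 (SE 0.19, adjusted p = 0.182) in Tg against WT.

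**Figure D4:**
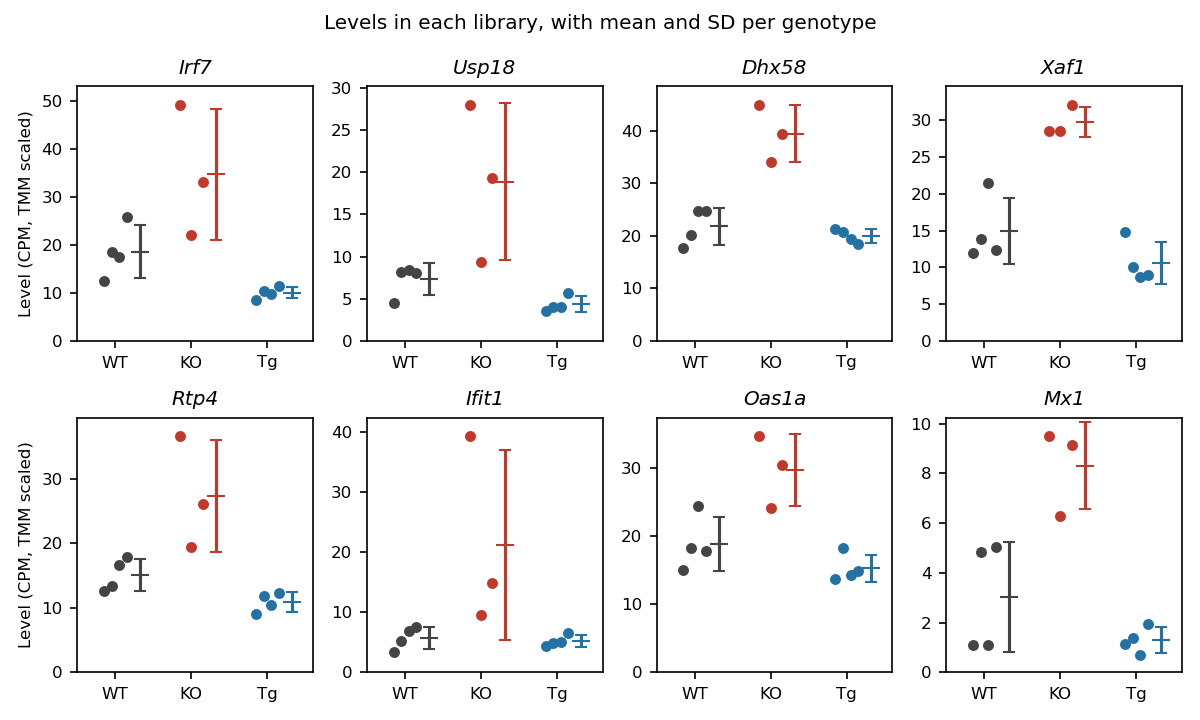
Levels (CPM, scaled by TMM factors) of 8 of the genes in each library, with mean and SD beside the points. For Irf7, Usp18, Dhx58, Xaf1, Rtp4, Ifit1, Oas1a and Mx1 the KO points lie above all Tg points, and for all but Irf7 and Oas1a they lie above all WT points too.

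Ifi27, a mitochondrial protein, held 44.9, 49.2, 59.5 and 62.3 in WT, 64.1, 65.1 and 69 in KO and 36.3, 48.4, 35.1 and 27.4 in Tg (CPM). KO was above all other libraries by a small margin, and 1 Tg value was in the WT range. Ifi27 fell by 0.84 in log2 (SE 0.17, edgeR adjusted p = 0.0171) in Tg against KO, a call lost without KO 1, KO 2 or KO 3 (adjusted p up to 0.0606), and its log2 fold change of Tg against WT, -0.55 (SE 0.16, adjusted p = 0.0674), had the lowest p of the 39 there. Ifi44 held 17.7, 42.1, 14.4 and 38.3 in WT, 87.7, 43.6 and 41.6 in KO and 11.9, 9.03, 13.1 and 28.1 in Tg, with WT again in a low and a high pair. It fell by 1.90 in log2 (SE 0.46, edgeR adjusted p = 0.0383) in Tg against KO, a call lost without KO 1, KO 2, KO 3, Tg 1, Tg 2 or Tg 3 (adjusted p up to 0.154).

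Parp9 and Dtx3l act together as an ADP-ribosylation and ubiquitin ligase pair, and Parp14 is a relative. Parp14 held 112, 132, 104 and 124 in WT, 157, 111 and 135 in KO and 75.6, 80.3, 95 and 104 in Tg (CPM), Tg being below KO in every library and touching WT at 1 library. It fell by 0.60 in log2 (SE 0.14, edgeR adjusted p = 0.033) in Tg against KO, a call lost without KO 1, KO 3, Tg 1 or Tg 2 (adjusted p up to 0.136), and stood at -0.41 (SE 0.13, adjusted p = 0.095) against WT. Parp9 held 64.7, 74.6, 68 and 76.8 in WT, 102, 67.4 and 81.7 in KO and 54.4, 52.5, 64.4 and 64.8 in Tg and fell by 0.51 in log2 (SE 0.13, edgeR adjusted p = 0.0484), a call lost without WT 1, WT 2, WT 3, WT 4, KO 1, KO 3, Tg 1, Tg 2, Tg 3 or Tg 4 (adjusted p up to 0.195). Dtx3l was not called, at -0.33 (SE 0.12, adjusted p = 0.129).

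A group of antiviral effectors was not called by edgeR in any comparison, though DESeq2 called Isg20 lower in Tg than in KO. Of Isg20, Rsad2, Bst2, Ifitm3, Cmpk2 and Trim30a, all 6 lay above WT in KO, with log2 fold changes from 0.35 to 0.98, and 4 lay above WT in Tg, all 6 between -0.15 and 0.20. Rsad2, which makes a nucleotide that ends viral RNA chains, held 5.75, 15.7, 7.2 and 27 in WT, 41.4, 18.2 and 22 in KO and 13.7, 10.8, 13 and 13.6 in Tg (CPM). Its neighbour Cmpk2, a nucleotide kinase, held 10.3, 23.5, 12.1 and 31.1 in WT, 43, 18.7 and 28.7 in KO and 18.8, 17.7, 23.3 and 19.9 in Tg. Both followed the same split of the WT libraries as Mx1 and Ifi44, with replicates 2 and 4 above replicates 1 and 3, and the Tg libraries between. Summed marker levels (CPM, in replicate order) were also highest in WT replicates 2 and 4 for B cells (275, 1070, 115 and 387) and erythroid cells (486, 619, 330 and 556). The same held for plasmacytoid dendritic cells (400, 512, 342 and 453) and monocytes (226, 354, 293 and 548). It did not hold for tissue macrophages (290, 198, 62.2 and 177) or neutrophils (92, 28.3, 20.8 and 114). Nor did it hold for granulocyte-monocyte progenitors (1970, 1430, 2740 and 3620) or T and NK cells (122, 95.7, 119 and 120). The part of these cell types in the split was not tested. The log2 fold changes of Tg against KO were -1.09 (SE 0.45, edgeR adjusted p = 0.187) for Rsad2 and -0.60 (SE 0.36, edgeR adjusted p = 0.38) for Cmpk2. Ifi35, Herc6, the mouse ligase for Isg15, Lgals3bp and Helz2 were not called either, and Herc6 was the only gene of the 39 with a value above 0 in Tg against KO, at 0.05 (SE 0.21, adjusted p = 0.927).

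Among the genes with a window, the presence of the promoter core did not sort the calls. Among the 13 genes called lower in Tg than in KO that had a window, 6 held a core (46.2%), as did 9 of the 16 others (56.2%). The 15 genes with a core had a median log2 fold change of Tg against KO of -0.96 and the 14 without one -0.66, the ranges being -3.05 to -0.26 and -1.90 to 0.05. Irf7 and Xaf1, called in every fit, held no core in these windows, which says nothing of a factor binding elsewhere. Usp18, Rtp4 and Dhx58, the other genes called in every fit, had no window and were not read. The same applies to the called genes Mx1, Oas2, Ifi27, Parp9, Parp14 and Zbp1.

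Genes that act upstream of the 39, or beside them, were read from 8 lists. Over all the lists, edgeR called 0 genes in KO against WT, with 18 of 100 at an unadjusted p under 0.05 (16 higher, 2 lower, against 3.33% and 3.75% of all genes), while DESeq2 called 4 higher (0.306% of the genes it tested) and limma-voom 0. In Tg against WT edgeR called 1 higher and 10 lower (2.54% and 2.39% of all genes). DESeq2 called 1 and 17 there (4.58% and 4.64% of the genes it tested). In Tg against KO edgeR called 1 higher and 17 lower (2.63% and 3.06% of all genes). DESeq2 called 1 and 29 there (4.77% and 4.72% of the genes it tested). Without the 4 libraries that held Xist as well as Y-linked reads, 1 WT library was left. The calls of Tg against WT in these lists were then lost, as were most such calls over all genes. A part of the calls of Tg against KO was kept. Of 21 interferon ligand genes 14 had no count in any library, Ifnb1 among them, and none had enough counts to be tested. Ifng, the type II interferon, was the most abundant at 0.191 to 0.336 CPM in WT, 0.150 to 0.525 in KO and 0 to 0.123 in Tg. The list summed to at most 0.678 CPM in a library.

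Of 9 receptor and kinase genes, 1 fell in Tg against both other genotypes and 0 changed in KO against WT. Ifnar1, a chain of the type I interferon receptor, held 112, 103, 107 and 103 in WT, 99.8, 100.1 and 94.8 in KO and 76.3, 78.6, 83.8 and 76.8 in Tg (CPM), every Tg value below all others. It fell by 0.43 in log2 (SE 0.06, edgeR adjusted p = 0.00461) against WT, in all 11 fits with 1 library left out (-0.44, adjusted p = 0.272, without the 4 libraries), and fell by 0.32 in log2 (SE 0.06, edgeR adjusted p = 0.0165) against KO, a call lost without KO 1, KO 2 or Tg 1 (adjusted p up to 0.0824). Its log2 fold change of KO against WT was -0.12 (SE 0.06, adjusted p = 0.751), and that of Ifnar2, the other chain, 0.22 (SE 0.11, adjusted p = 0.722). Both receptor chains were expressed in all 11 libraries.

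Of 8 transcription factors outside the 39, 2 fell in Tg against KO and 0 in the other comparisons. Irf5, which acts below Toll-like receptors, held 20.6, 36.3, 20.1 and 28.2 in WT, 36.3, 42.4 and 36.5 in KO and 16.7, 19.4, 25.1 and 14.5 in Tg (CPM) and fell by 1.02 in log2 (SE 0.22, edgeR adjusted p = 0.0249), a call lost without KO 1, KO 2, KO 3, Tg 1, Tg 2 or Tg 4 (adjusted p up to 0.0993). Irf3, the factor that starts interferon transcription, fell by 0.31 in log2 (SE 0.07, edgeR adjusted p = 0.0347), a call lost without KO 1, KO 2, KO 3, Tg 1, Tg 2 or Tg 4 (adjusted p up to 0.138).

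Of 16 sensing and adaptor genes, Tlr7, the endosomal receptor for single-stranded RNA, held 27.9, 18.5, 10.8 and 20.4 in WT, 24.4, 37.2 and 31.6 in KO and 11.8, 8.33, 9.45 and 13 in Tg (CPM). It fell by 1.54 in log2 (SE 0.27, edgeR adjusted p = 0.0103) in Tg against KO, in all 11 fits. Against WT in Tg, the kinase Tbk1 fell by 0.30 in log2 (SE 0.07, edgeR adjusted p = 0.0416) and the ligase Traf6 fell by 0.27 in log2 (SE 0.06, edgeR adjusted p = 0.0342), calls lost without WT 1, WT 2, WT 4, KO 1, KO 2, KO 3, Tg 1, Tg 2 or Tg 4 (adjusted p up to 0.128) for the first and without WT 1, WT 2, WT 3, KO 1, KO 2, KO 3, Tg 1, Tg 2 or Tg 3 (adjusted p up to 0.0967) for the second. The other 13 were not called by edgeR in any comparison. Of 10 genes that restrain sensing 9 were tested and 0 called by edgeR, with 3 at an unadjusted p under 0.05 in Tg against KO (Adar, Samhd1 and Dnase1l3), while DESeq2 called Adar lower in Tg than in KO and Dnase1l3 lower in Tg than in WT, and Trex1 had no count.

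Of 4 genes listed under Isg15 conjugation, Trim25 and Herc3 fell in Tg against KO, by 0.45 (adjusted p = 0.0314) and 0.53 (adjusted p = 0.0213) on the log2 scale in edgeR. Herc3 stood on this list but is not the mouse ligase for Isg15. That ligase, Herc6, was at 0.05 (edgeR adjusted p = 0.927). The listed genes Uba7 and Ube2l6 were not called, at 0.26 (edgeR adjusted p = 0.42) and -0.41 (edgeR adjusted p = 0.232). The call of Trim25 was lost without KO 1, KO 3, Tg 1, Tg 2 or Tg 4 (adjusted p up to 0.131) and that of Herc3 without KO 1, KO 2, KO 3, Tg 1 or Tg 2 (adjusted p up to 0.0834). Of 8 feedback genes, Socs3, an inhibitor of cytokine receptor signalling, held 26.5, 22.3, 39.4 and 42.8 in WT, 24.8, 14.1 and 14.8 in KO and 66.2, 76.2, 89.1 and 94.7 in Tg (CPM). All 4 Tg values were above all 7 others. Socs3 rose in Tg, with a log2 fold change of 1.32 (SE 0.24, adjusted p = 0.0146) against WT and 2.19 (SE 0.27, adjusted p = 0.00177) against KO, in all 11 fits of each. Without the 4 libraries the value against WT was 1.06 (adjusted p = 0.224) and that against KO 2.49 (adjusted p = 0.00123). Socs1, a closer inhibitor of interferon signalling, was at -0.02 (SE 0.35, adjusted p = 0.985) against KO.

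Other genes induced by interferon showed the same order in part. Of 46 tested, 7 were called lower in Tg than in WT (2.39% of all genes) and 11 lower than in KO (3.06%), 0 higher, and edgeR called 0 in KO against WT. With each library left out in turn, 4 of the 7 and 6 of the 11 calls were lost in at least 1 fit. Phf11d held 5.18, 7.62, 9.48 and 5.75 in WT, 19.9, 11.4 and 14 in KO and 1.62, 2.18, 1.97 and 2.64 in Tg (CPM), with the 3 genotypes apart. It fell by 1.74 in log2 (SE 0.25, edgeR adjusted p = 0.00692) against WT and fell by 2.84 in log2 (SE 0.27, edgeR adjusted p = 0.000315) against KO, in all 11 fits of each, with -2.16 (adjusted p = 0.0506) and -2.60 (adjusted p = 0.00373) without the 4 libraries. Its neighbour Phf11b fell by 1.14 in log2 (SE 0.17, edgeR adjusted p = 0.00966) and fell by 1.51 in log2 (SE 0.19, edgeR adjusted p = 0.00177), but reads of this gene family could be split between copies. The chemokine Ccl5 fell by 1.73 in log2 (SE 0.29, edgeR adjusted p = 0.0085) against KO, in all 11 fits, and fell by 1.40 in log2 (SE 0.28, edgeR adjusted p = 0.0202) against WT, a call lost without WT 1, WT 2, Tg 1 or Tg 2 (adjusted p up to 0.0704).

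**Figure D5:**
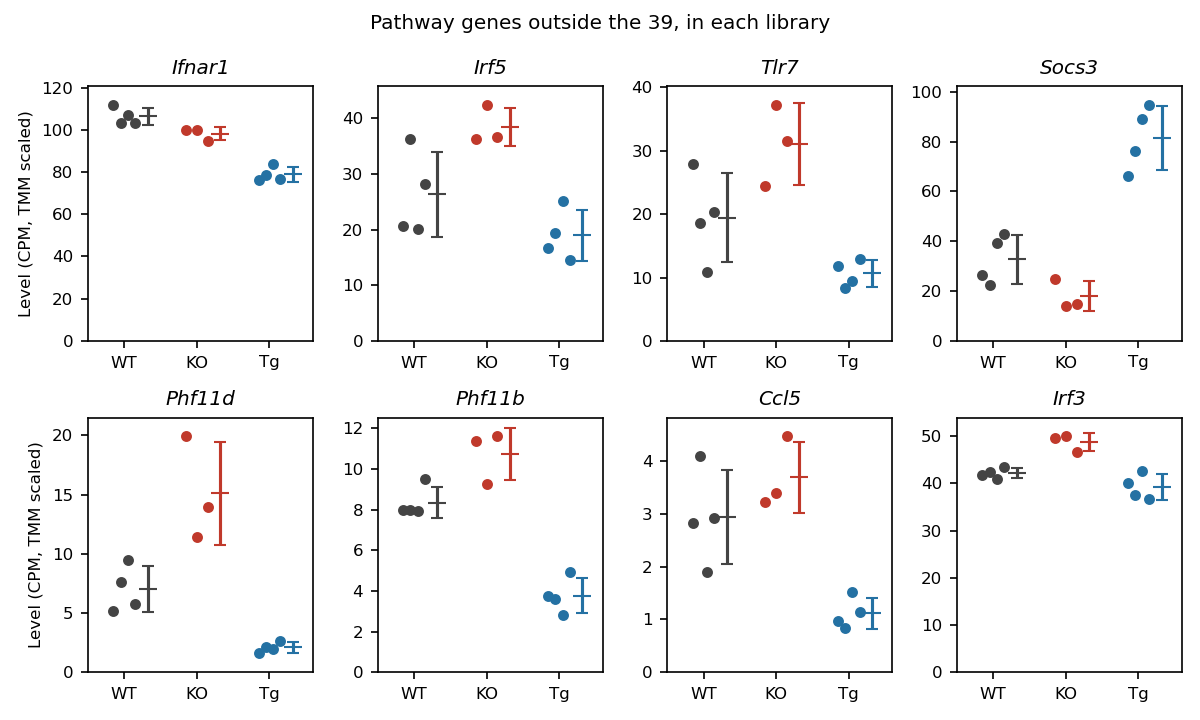
Levels (CPM, scaled by TMM factors) of 8 pathway genes outside the 39, in each library, with mean and SD beside the points. The 4 Tg points are the lowest for Ifnar1, Phf11d, Phf11b and Ccl5 and the highest for Socs3.

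Markers of other cell types also moved with genotype, and their part in the differences of the 39 genes was not tested. Of 7 tested markers of plasmacytoid dendritic cells, strong interferon producers, 5 lay above WT in KO and 7 below KO in Tg. Their summed level was 342 to 512 CPM in WT, 492 to 494 in KO and 268 to 350 in Tg, but it came mostly from Tcf4 and Irf8. Of this list, Klk1 was at 0 in every library and Siglech at 0.0317 to 2.44 CPM. Of the 7 tested, only Pacsin1 and Tcf4 were called lower in Tg than in KO, where 3.06% of all genes were. Their log2 fold changes were -2.57 (edgeR adjusted p = 0.031) and -0.5 (edgeR adjusted p = 0.0396). Tcf4 was also called lower in Tg than in WT, at -0.56 (edgeR adjusted p = 0.0233). All 10 monocyte markers lay above WT in KO (sums of 759 to 1040 CPM against 226 to 548 in WT) and ran from 322 to 953 CPM in Tg. All 9 granulocyte-monocyte progenitor markers lay above WT in Tg, 8 of them called (2.54% of all genes were called higher). Their sums were 4950 to 24400 CPM in Tg, against 1430 to 3620 in WT and 3870 to 5010 in KO. These calls were lost without the 4 libraries that held Xist as well as Y-linked reads. So were most calls of Tg against WT over all genes. Tissue macrophage markers summed to 62.2 to 290 CPM in WT, 50 to 194 in KO and 30.1 to 131 in Tg, and B cell markers to 115 to 1070, 287 to 469 and 41 to 134. Neutrophil markers summed to 20.8 to 114 CPM in WT, 39 to 74.6 in KO and 58.2 to 610 in Tg, and erythroid markers to 330 to 619, 387 to 413 and 192 to 395. T and NK cell markers summed to 95.7 to 122 CPM in WT, 99.8 to 117 in KO and 128 to 265 in Tg, a sum carried by Nkg7 (109.9 to 248 CPM in Tg). Of the 10, 8 lay below WT and 8 below KO in Tg, 3 of them called in each comparison, with medians of -1.69 and -2.08 in log2.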

How the data were processed

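Total RNA of LSK cells from individual mice was sequenced as paired reads, per the labels' protocols. The authors deposited raw counts per gene symbol for the 11 libraries, with no normalisation. Per the submitters' processing notes the tools were FastQC, Trimmomatic, STAR and HTSeq and the build mm10; their versions, the annotation used and the strand setting were not given in the sources used here. Groups were taken from the labelled genotypes. The 39 genes and the pathway and marker lists were chosen with earlier results of these data known.

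For all 11 libraries together, counts were fitted in edgeR 4.0.16 (R 4.3.3) after TMM scaling and filterByExpr, with genotype as the only term, and contrasts were tested by quasi-likelihood. Calls required an adjusted p (Benjamini-Hochberg over 17183 genes) under 0.05. SE is the fold change divided by the root of F. Levels per kilobase use merged GENCODE M21 exons. The fit was tested on simulated data. Alternatives were DESeq2 1.42.0, limma-voom (limma 3.58.1), RLE or total-count scaling, filtering of low counts left out or made stricter (2 CPM in 3 libraries), the 2 groups compared alone, the replicate number as a block, and each library left out. A Y-linked covariate and leaving out 4 libraries were added after the data were examined. Full statistics are given for the genes of the 39 called in any comparison, the 3 with the lowest p in each, and Stat2, Irf7, Irf9 and Usp18. Of the pathway lists, genes called are named, or else at most 2 with the lowest p, except that other genes induced by interferon are given by counts and 3 examples. These examples, Socs1 and Trex1 were named after their values were seen, and some genes of the lists are not reported here. Transcripts were compared with blastn 2.17.0, and figures drawn with matplotlib 3.10.9 under Python 3.11.15.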

Additional observations from a re-analysis of the deposited data

Results flagged for a closer look

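In 5 of 78 sets of 4 libraries (39 genes in WT and in Tg), 1 library lay further from the other 3 than Dixon's critical ratio allows, or 6.41% of the sets, where chance gives about 1 in 20. Ifit3 was low in WT replicate 1, at 0.54 CPM against 1.49 to 1.59 in the others, and Usp18 was low in the same library, at 4.45 CPM against 8.10 to 8.44. In Tg replicate 4, Ifit3 was high at 1.69 CPM against 0.492 to 0.65 and Zbp1 at 6.30 CPM against 3.69 to 3.81. Lgals3bp was at 182 CPM in Tg replicate 1 against 168 to 170.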

How the results depend on the processing

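Median log2 fold changes of the 39 genes kept their direction in every alternative and comparison. In KO against WT the number called higher was 0 in the fit reported and in every alternative except DESeq2, with 6. In Tg against WT the number called lower was 0 (2.39% of all genes), but 4 with DESeq2 (4.64% of the genes it tested) and 1 with library totals as scaling (2.58%). It was 2 with no filter on low counts (1.41%) and 1 with the Y-linked level as a covariate (3.57%). With each library left out it was 0 to 1 (1 without Tg replicate 2, Ifi27, where 0.785% of all genes were called lower). In Tg against KO the number called lower was 22 (3.06% of all genes), and 8 with the replicate number as a block (replicate block, 1.04%), all 8 among the 22. It was 14 with the Y-linked covariate (1.48%). Without the 4 libraries that held Xist as well as Y-linked reads the median was -0.69. With each library left out the number called ran from 5 (1.21% of all genes) to 21 (2.87%) and the median from -1.08 to -0.68. The cause was not tested. None of 10 same-numbered pairs across genotypes had deviations correlated above 0.1 (-0.245 to 0.096), while differently numbered pairs ran from -0.344 to 0.308. Whether the replicate numbers pair the libraries cannot be told from these correlations. Depth limits Ifit3b, Ifit3 and the interferon ligand genes.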

Other observations

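Within WT and within KO the 39 genes spread further between libraries than all genes tested, and within Tg a smaller share of them spread more than 2-fold. The highest WT library was a median of 1.65 times the lowest over 38 of the genes (1.46 over all genes tested), the highest KO library 1.53 times (1.23) and the highest Tg library 1.42 times (1.43). A more than 2-fold spread was seen for 39.5% of the genes in WT, 30.8% in KO and 15.4% in Tg, against 27.0%, 16.1% and 25.5% of all genes. In WT the largest ratios were those of Rsad2 (4.69), Mx1 (4.53), Cmpk2 (3.03), Ifit3 (2.94) and Ifi44 (2.92). These genes were chosen after their values were seen.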
